A study of Mus musculus with 12 samples.

Results

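Collagen chain genes were examined in RNA sequencing libraries of cardiomyocytes isolated from the hearts of newborn mice. The members were all protein-coding genes whose symbol is Col, digits, the letter a and digits with nothing after, and there were 44 of them among the 52336 genes of the deposited table. They comprised 11 fibrillar chains, 8 chains of basement membranes (type IV, XV and XVIII collagens) and 25 other chains. A mean of at least 10 normalized reads over the 12 libraries was reached by 39 members, 10 fibrillar, 8 of basement membranes and 21 others, and these were tested among 14996 genes. The other 5 members, Col2a1, Col6a4, Col10a1, Col19a1 and Col22a1, were too low to test.

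The libraries formed 4 groups of 3, named NAC MI, saline MI, NAC sham and saline sham. All mice were wild type. Pups were injected on each of postnatal days 0 and 1 with saline or with N-acetylcysteine (NAC), a cysteine precursor that acts as an antioxidant. NAC was given at what the labels call a high dose, buffered with HEPES (25 mM) in NaCl (140 mM). On day 2 they underwent occlusion of the left anterior descending artery (MI, myocardial infarction) or sham surgery, and cells were collected on day 3. Ventricles were pooled and digested, and cardiomyocytes were selected with an isolation kit, so a library can hold cells of several hearts. The labels give left ventricle and the series text whole ventricles. Replicate numbers only name the libraries, and nothing states that they came from separate litters, so p-values reflect only how much these libraries varied.

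Collagens are secreted or membrane proteins whose chains wind into a triple helix, which requires a glycine in each repeat of its sequence. Fibrillar collagens assemble outside the cell into the fibres that give the heart wall its tensile strength, and type IV collagen forms the network of the basement membranes that surround cardiomyocytes and capillaries. In the heart, fibroblasts make most of the fibrillar chains, while endothelial and mural cells make much of type IV collagen, and scar formation after infarction involves deposition of types I and III.

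The repeat is visible in the coding sequence. The 54 bases below open the longest unbroken run of triplets that begin with a glycine codon in 3 members, read 5′ to 3′ on the coding strand from the GENCODE M21 transcripts. Capitals mark the glycine codons, GGN. They are shown for Col1a1, a chain of type I collagen, for Col5a3, the chain with the largest log2 change with infarction over both treatments, and for Col4a1, the most abundant basement membrane chain.
Col1a1 coding bases 502 to 555: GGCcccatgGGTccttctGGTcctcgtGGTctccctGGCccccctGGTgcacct
Col5a3 coding bases 1432 to 1485: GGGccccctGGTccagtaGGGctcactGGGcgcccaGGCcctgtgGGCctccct
Col4a1 coding bases 127 to 180: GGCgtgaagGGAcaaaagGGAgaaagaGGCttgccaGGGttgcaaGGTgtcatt
The longest unbroken run held 338 triplets in Col1a1, 337 in Col5a3, 344 in Col3a1, 40 in Col4a1 and 66 in Col4a2. Over the 11 fibrillar members it held 216 to 344 triplets with a median of 338, and the lowest values were those of Col24a1 (216) and Col27a1 (217). The longest run was shorter in the other families. It held 30 to 66 triplets (median 41) over the 8 basement membrane members and 23 to 113 (median 52) over the 25 others. Interruptions were not counted. Col8a1 had 61 triplets and Col12a1, a very long chain of mostly non-collagenous domains, had 32.

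Promoter windows of 250 bases before the annotated start are shown for Col5a3 and Col8a1, which were called higher after infarction (RefSeq, GRCm38.p6, both on the minus strand and printed 5′ to 3′ on the gene's strand). Neither window overlaps an annotated exon. Capitals mark the letters CCAAT and GGGCGG on either strand. GGGCGG reads CCGCCC where it lies on the opposite strand.
Col5a3 at chr9:20815068-20815317: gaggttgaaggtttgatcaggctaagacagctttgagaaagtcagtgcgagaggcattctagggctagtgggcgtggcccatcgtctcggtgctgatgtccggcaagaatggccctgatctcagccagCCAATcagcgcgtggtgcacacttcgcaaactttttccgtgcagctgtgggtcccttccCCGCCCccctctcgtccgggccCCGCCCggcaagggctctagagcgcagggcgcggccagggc
Col8a1 at chr16:57754738-57754987: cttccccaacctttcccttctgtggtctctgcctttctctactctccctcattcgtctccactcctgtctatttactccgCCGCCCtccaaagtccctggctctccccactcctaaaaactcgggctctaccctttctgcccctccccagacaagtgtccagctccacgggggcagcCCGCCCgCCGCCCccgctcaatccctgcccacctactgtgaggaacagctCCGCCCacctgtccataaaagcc
Col5a3 held CCAAT 122 bases before its start and CCGCCC 63 and 41 bases before it. Col8a1 held CCGCCC 170, 73, 66 and 23 bases before its start. TATAAA was also searched and was in neither window. Over all 32851 windows of the table, 33.8% held CCAAT, 32.7% held GGGCGG and 12.4% held TATAAA on either strand. Windows were matched for 35 of the 44 members. Of their 38 windows 13, 22 and 5 held these motifs in the same order, and these belonged to 13, 21 and 5 genes.

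Several members lie side by side in the genome (GRCm38, GENCODE M21). Col4a1 (chromosome 8, 11198423 to 11312826, minus strand) and Col4a2 (11312805 to 11449287, plus strand) are head to head and share 22 bases at their starts. Col4a4 and Col4a3 lie head to head 71 bases apart on chromosome 1, and Col4a6 and Col4a5 1308 bases apart on chromosome X. Col3a1 and Col5a2 are neighbours on chromosome 1, 24614 bases apart, and Col6a2 and Col6a1 on chromosome 10, 85161 bases apart. The strand setting of the counting is not given in the sources used here, so reads in shared exons cannot be assigned. This shared part was 5.65% of the exon bases of Col4a3 (with C430014B12Rik) and 6.07% of those of Col9a3 (with Tcfl5).

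Depth recovered from the table was 14353842 to 25118341 reads per library. Cardiomyocyte markers were abundant in all 12 libraries (mean log2 level 13.50 to 15.15 over 12 genes), and none of the fibroblast, endothelial, mural, epicardial or macrophage markers was at 0 in any library, so these markers were detected throughout. In such bulk samples, more or fewer cells of a type cannot be told apart from more or less RNA per cell. NAC MI 2 and NAC sham 2 stood apart from their groups in macrophage markers, with mean log2 levels of 5.81 in NAC MI 2 against 9.27 and 9.002 in NAC MI 1 and 3, and 9.998 in NAC sham 2 against 6.64 and 6.34 in NAC sham 1 and 3. NAC MI 2 also had the highest epicardial markers, 10.94 against 7.87 to 9.19 in the other 11 libraries. Mitochondrial transcripts took 21.7% to 30.2% of reads in MI libraries and 7.65% to 27.7% in sham libraries. Their share was 27.7% in saline sham 3 against 7.65% and 13.6% in saline sham 1 and 2. Counts of called members are therefore also given without NAC MI 2, NAC sham 2 and saline sham 3. The sample titles carry prefixes of unstated meaning. No prefix is found on both MI and sham libraries, so effects of surgery and of prefix cannot be told apart. Among MI libraries, NAC MI 1 and 2 share a prefix with saline MI 3. NAC MI 3 shares the other prefix with saline MI 1 and 2.

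Collagen transcripts made up a small share of all reads, a total that includes mitochondrial transcripts. The 44 members took 1.61 ± 0.431% of normalized reads in NAC MI, 1.74 ± 0.191% in saline MI, 1.46 ± 0.312% in NAC sham and 1.47 ± 0.480% in saline sham (SD, n = 3 each). Per kilobase of principal transcript, Col3a1 was the most abundant chain at 10373 normalized counts averaged over the 12 libraries. Col4a1 followed with 7594, Col1a1 with 6194, Col1a2 with 5573 and Col4a2 with 4743 on the same scale. By the length of merged exons Col4a1 came before Col3a1, so the order of these 2 depends on the length used. Next came Col6a2 with 2074, Col6a1 with 1898, Col15a1 with 1536, Col18a1 with 1366, Col5a1 with 1333, Col5a2 with 1038, Col14a1 with 771 and Col6a3 with 515 counts per kilobase. The next member, Col16a1, had 214 counts per kilobase, and Col5a3 ranked 16 with 134. The chains at the top are thus those of types I, III, IV and VI, with both fibrillar and basement membrane chains among them.

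Fibrillar chains took a larger share of collagen transcripts in the MI group means than in the sham group means, a difference that was not tested. Fibrillar chains made up 61.5 ± 7.12% of summed collagen counts per kilobase in NAC MI, 57.3 ± 3.73% in saline MI, 47.4 ± 7.61% in NAC sham and 42.3 ± 3.44% in saline sham. Basement membrane chains made up 25.1 ± 5.78%, 29.2 ± 4.24%, 39.6 ± 8.73% and 45.0 ± 4.79% in the same groups. The ratio of summed fibrillar to basement membrane counts per kilobase was 2.59 ± 0.913 in NAC MI, 2.002 ± 0.417 in saline MI, 1.27 ± 0.517 in NAC sham and 0.953 ± 0.175 in saline sham. The saline groups did not overlap in this ratio (1.59 to 2.42 in saline MI, 0.772 to 1.12 in saline sham), whereas the NAC groups did (1.765 to 3.57 in NAC MI, 0.863 to 1.85 in NAC sham). The remaining chains kept a share of 12.8% to 13.5% in the group means.

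**Figure D1:**
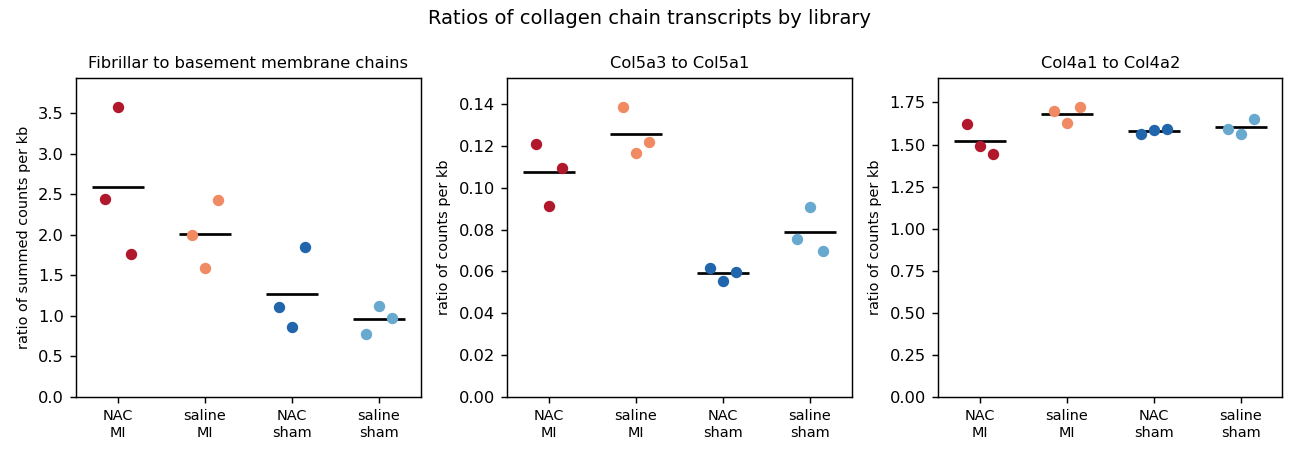
Ratios of counts per kilobase of principal transcript in the 12 libraries for summed fibrillar over basement membrane chains, Col5a3 over Col5a1 and Col4a1 over Col4a2; points are libraries and lines are group means (n = 3). Every MI library had a higher Col5a3 to Col5a1 ratio (0.0915 to 0.139) than every sham library (0.0555 to 0.0909), and Col4a1 to Col4a2 stayed between 1.441 and 1.72.

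Infarction was compared with sham surgery over both treatments, which asked what the injury changed in the isolated cells a day later. The test over all genes was passed by 3 members, all of them higher: Col5a3, Col8a1 and Col12a1. This was 3 of 39 tested members, against 2.13% of all tested genes called higher in this comparison (limma, adjusted p under 0.05). No member was called lower, against 0.613% of all genes. At an unadjusted p under 0.05 there were 15 members higher (10.4% of all genes) and 2 lower, Col4a3 and Col25a1 (9.83%). The estimates for Col1a1, Col1a2, Col3a1, Col5a1, Col5a2, Col6a1, Col6a2 and Col6a3 were above 0 as well, while 6 of the 8 basement membrane chains were below it. The median log2 change was 0.71 over the 10 tested fibrillar members, -0.23 over the 8 of basement membranes and 0.44 over the 21 others, against -0.003 over all genes.

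Among fibrillar chains, Col5a3, a less common chain of type V collagen, which is incorporated in fibrils of types I and III, had the largest log2 change of the 39 tested members over both treatments (ENSMUSG00000004098, chromosome 9, 20770050 to 20815067, minus strand). Col5a3 had 1442, 827 and 547 normalized counts in NAC MI, with 1575, 1212 and 1734 in saline MI. NAC sham held 279.5, 324 and 459.7 and saline sham 499, 624 and 307. MI and sham did not overlap within either treatment, but the lowest NAC MI library (547) lay under the highest saline sham library (624). The log2 change was 1.51 (SE 0.24, adjusted p = 0.00576 in limma) over both treatments, a 2.85-fold difference on the log2(value + 1) scale. It stayed called when each of the 12 libraries was left out in turn (adjusted p 0.0034 to 0.0221).

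Col1a1 and Col1a2 encode the chains of type I collagen, the main collagen of scar and interstitium. Col1a1 had 62024, 58319 and 24809 normalized counts in NAC MI, with 49022, 40224 and 61941 in saline MI. NAC sham held 20375, 22457 and 34355 and saline sham 23646, 26395 and 17225. NAC MI 3 lay among the sham libraries, and the other 5 MI libraries were above all of them. The log2 change of Col1a1 was 1.003 (SE 0.27, adjusted p = 0.0635 in limma), which missed the threshold. Col1a2 had 41789.5, 43036 and 26799 counts in NAC MI, 39621, 31494 and 46649 in saline MI, 17801, 21930.0 and 27541 in NAC sham and 18812, 25414 and 16761 in saline sham. Its pattern was that of Col1a1, with NAC MI 3 below the highest NAC sham library and a log2 change of 0.84 (adjusted p = 0.0549 in limma).

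Col3a1, the single chain of type III collagen, had 78569, 78827 and 48202 normalized counts in NAC MI, with 79317, 64818 and 88366 in saline MI. NAC sham held 35532, 40139 and 55539 and saline sham 37777, 49469 and 36008. NAC MI 3 was again the low MI library and lay under NAC sham 3, while saline MI and saline sham did not overlap. The log2 change was 0.78 (SE 0.24, adjusted p = 0.0977 in limma) and did not pass.

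Col5a1 and Col5a2, the major chains of type V collagen that initiate and limit fibril growth, gave smaller log2 changes than Col5a3. Col5a1 had 16359, 12422 and 6873 normalized counts in NAC MI, with 15624, 14253 and 19562 in saline MI. NAC sham held 6221, 8022 and 10563 and saline sham 9069, 9429 and 6050.2. Saline MI lay above every sham library, and NAC MI 3 lay within the sham range. Col5a2 had 8461, 9816 and 5916 counts in NAC MI, 8742, 7081 and 9804 in saline MI, 4709.9, 5553 and 6084 in NAC sham and 4802, 6781 and 4744 in saline sham. Neither passed, with log2 changes of 0.75 for Col5a1 (adjusted p = 0.0976) and 0.60 for Col5a2 (adjusted p = 0.0714 in limma).

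Col5a3 was also set against Col5a1 within each library. Col5a3 relative to Col5a1, per kilobase, averaged 0.107 ± 0.0149 in NAC MI, 0.126 ± 0.0113 in saline MI, 0.0590 ± 0.00319 in NAC sham and 0.0787 ± 0.0110 in saline sham (SD, n = 3 each). All 6 MI libraries were above all 6 sham libraries. The difference in mean log2 ratio between MI and sham was 0.77, and it ran from 0.71 to 0.85 with each library left out in turn. For 5 other ratios, those of Col1a1 to Col1a2, Col1a1 to Col3a1, Col5a1 to Col5a2, Col4a1 to Col4a2 and Col6a1 to Col6a2, this difference was between 0.0046 and 0.23. The ratios were chosen after the values of their members had been seen, so they are given as a description with no test.

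The rare fibrillar chains Col11a1, Col11a2, Col24a1 and Col27a1, best known from cartilage and bone, averaged 86.0 to 370 normalized counts over the 12 libraries, and none was called. Col2a1, the main cartilage fibril chain, had 69 reads over all 12 libraries.

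Of the non-fibrillar chains, Col8a1 and Col12a1 were called. Col8a1, a short chain that builds networks around vessels and in the subendothelium (ENSMUSG00000068196, chromosome 16, 57624258 to 57754737, minus strand), had 482, 582 and 410.5 normalized counts in NAC MI, with 569, 318 and 631 in saline MI. NAC sham held 218, 323 and 257 and saline sham 191, 288 and 275. Each MI group lay above its own sham group, and saline MI 2 was just under the highest NAC sham library. The log2 change was 0.93 (SE 0.20, adjusted p = 0.0254 in limma), and it was called in 6 of 12 fits with 1 library left out (adjusted p 0.0118 to 0.0894). It was not called without NAC MI 1, saline MI 1, saline MI 3, NAC sham 1, NAC sham 3 or saline sham 1.

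Col12a1, a fibril-associated chain that decorates type I fibrils (ENSMUSG00000032332, chromosome 9, 79598991 to 79718831, minus strand), had 2162, 1598 and 1165 normalized counts in NAC MI, with 1352, 1099 and 1474 in saline MI. NAC sham held 651, 961 and 1066 and saline sham 722, 851 and 327. It was the only tested member whose 6 MI libraries all lay above all 6 sham libraries, against 1.45% of all genes, and none had all MI libraries below (0.76%). The log2 change was 1.01 (SE 0.24, adjusted p = 0.0419 in limma). It was called in 4 of 12 fits with 1 library left out (adjusted p 0.0271 to 0.119), those without NAC MI 3, NAC sham 2, saline sham 2 and saline sham 3. With no filter on low values it was not called (adjusted p = 0.0503 in limma).

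Without NAC MI 2, NAC sham 2 and saline sham 3, 8 members were called in this comparison: Col5a3, Col8a1, Col12a1, Col1a2 and Col6a1, which were higher (8.32% of all genes in the same fit), and Col25a1, Col4a3 and Col4a4, which were lower (6.23%). Calls over all genes numbered 2183 in that fit, against 411 with all libraries. Leaving out 1 library at a time gave 1 to 8 called members and 133 to 1563 called genes in all, with 8 without NAC MI 3, 7 without saline sham 3 and 1, Col5a3, without any of NAC MI 1, saline MI 1, saline MI 3, NAC sham 1, NAC sham 3 and saline sham 1.

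**Figure D2:**
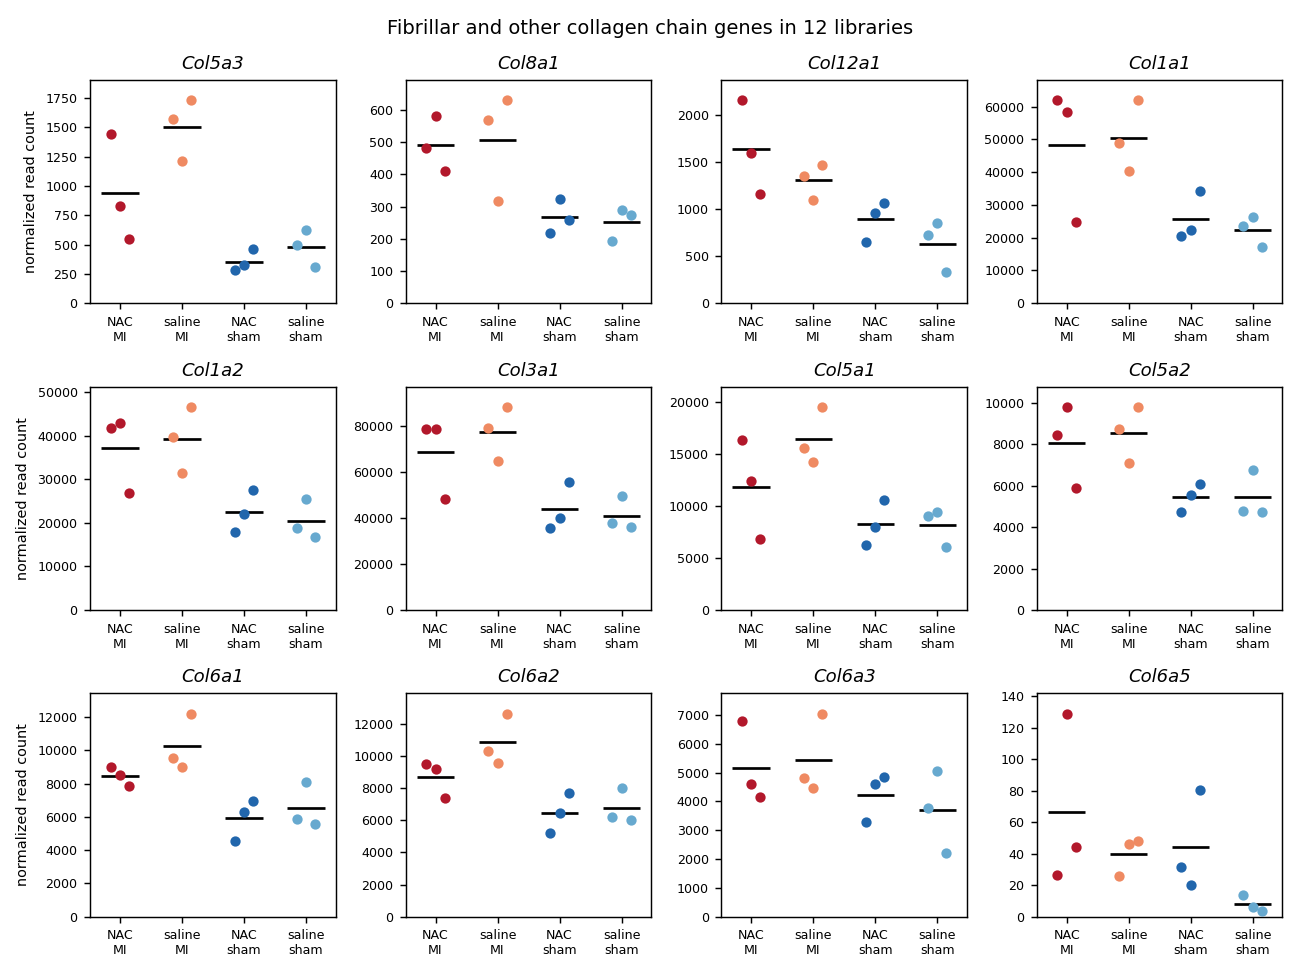
Normalized read counts of 12 fibrillar and other collagen chain genes in each of the 12 libraries, by group; points are libraries, lines are group means (n = 3), and each panel starts at 0 with its own scale. Col5a3 was at 547 to 1734 in MI and 279.5 to 624 in sham libraries, and in Col1a1, Col1a2 and Col3a1 the NAC MI group held a single low library.

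Type VI collagen forms beaded microfibrils that link basement membranes to the interstitium. Col6a1 had 8983, 8514 and 7846 normalized counts in NAC MI, with 9505, 9001 and 12197 in saline MI. NAC sham held 4572, 6271 and 6928 and saline sham 5875, 8113 and 5586. Only saline sham 2 reached into the range of the MI libraries. Col6a2 had 9509, 9206 and 7396 counts in NAC MI, 10315, 9600.1 and 12642 in saline MI, 5209, 6454 and 7679 in NAC sham and 6206, 8042 and 6023 in saline sham. Neither passed, with log2 changes of 0.59 for Col6a1 (adjusted p = 0.0621) and 0.56 for Col6a2 (adjusted p = 0.0644 in limma). Col6a1 and Col6a2 stood in the same library order within each of the 4 groups, and their ratio per kilobase stayed between 0.845 and 1.02.

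Col6a3, the largest chain of the type VI trimer, had 6786, 4600.4 and 4138 normalized counts in NAC MI, 4797, 4450.2 and 7045 in saline MI, 3270.1, 4601 and 4844 in NAC sham and 3771, 5067 and 2219 in saline sham. The groups overlapped, and its log2 change was 0.44 (adjusted p = 0.273 in limma). Col6a5, an alternative type VI chain, was low and varied widely. It had 26.3, 129 and 44.1 counts in NAC MI, 25.8, 46.1 and 47.8 in saline MI, 31.6, 20.1 and 80.2 in NAC sham and 13.8, 5.95 and 3.57 in saline sham. Saline sham was the low group, and the 3 others overlapped.

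Basement membrane chains did not share the higher values of the fibrillar chains. Of the 8 tested, 2 had a log2 change above 0 over both treatments (49.7% of all genes). With all 12 libraries none was called in either direction by limma (2.13% of all genes higher and 0.613% lower), edgeR or DESeq2. At an unadjusted p under 0.05 there was 1, Col4a3, which was lower (9.83% of all genes), and none was higher (10.4%). Without NAC MI 2, NAC sham 2 and saline sham 3, however, Col4a3 and Col4a4 were called lower in limma (6.23% of all genes in that fit). Col4a1 had 48581, 30673 and 34899.8 normalized counts in NAC MI, with 55238, 55912 and 52871 in saline MI. NAC sham held 43100.0, 66055 and 39669 and saline sham 69431, 59839 and 46564. The MI and sham libraries overlapped, with the lowest values in NAC MI 2 and 3. Col4a2 had 29154, 20076 and 23611 counts in NAC MI, 31717, 33522 and 29958 in saline MI, 26885, 40653 and 24285 in NAC sham and 42457, 37281 and 27473 in saline sham. The log2 changes were -0.23 for Col4a1 (SE 0.23, adjusted p = 0.608) and -0.23 for Col4a2 (SE 0.20, adjusted p = 0.550 in limma). The pair stood in the same library order within each of the 4 groups, and its ratio per kilobase stayed between 1.441 and 1.72. The head-to-head pairs Col4a3 with Col4a4 and Col4a5 with Col4a6 did so in 2 of 4 groups each, at far lower counts. Shared order was not limited to head-to-head pairs. Col3a1 and Col5a2 had it in 4 of 4 groups, and Col1a1 and Col1a2, on different chromosomes, in 3 of 4.

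Col15a1 and Col18a1 encode proteoglycan-like collagens of the basement membrane zone, and the end of the Col18a1 chain is released as endostatin. Col15a1 had 7932, 4353 and 6181 normalized counts in NAC MI, 8775, 8789 and 10115 in saline MI, 6164, 9536 and 7173 in NAC sham and 10173, 9149.8 and 6961 in saline sham. Col18a1 had 5346, 3532 and 4360.1 counts in NAC MI, 7985, 8351 and 6738 in saline MI, 5439, 7139.8 and 4849 in NAC sham and 9359, 6994 and 8454 in saline sham. MI and sham overlapped for both genes. The log2 change with infarction was -0.12 for Col15a1 (adjusted p = 0.747) and -0.25 for Col18a1 (adjusted p = 0.380 in limma). Col4a3, which pairs with Col4a4 and Col4a5 in specialised basement membranes, averaged 57.3 counts over the 12 libraries, and its saline MI libraries all lay below saline sham.

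**Figure D3:**
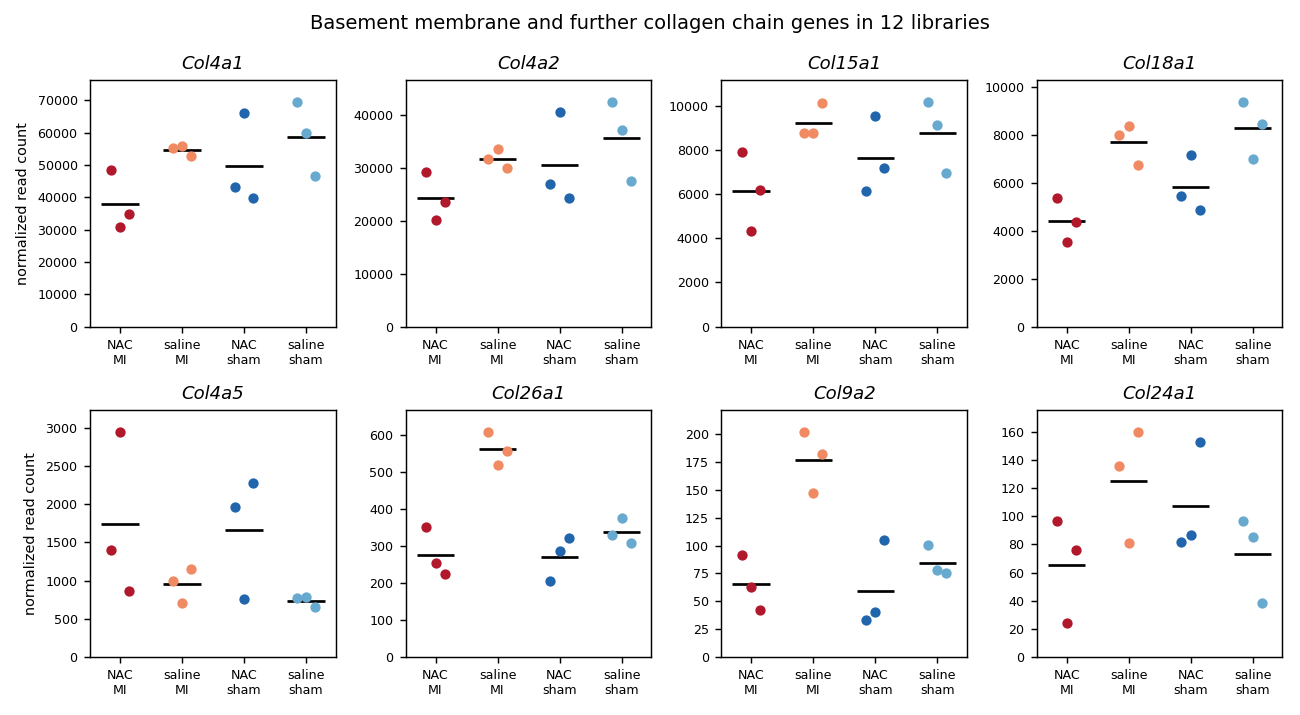
Normalized read counts of Col4a1, Col4a2, Col15a1, Col18a1, Col4a5, Col26a1, Col9a2 and Col24a1 in each of the 12 libraries, by group; points are libraries, lines are group means (n = 3), and each panel starts at 0 with its own scale. Col26a1 was at 520 to 608 in saline MI and 206 to 377 in the other 3 groups, and Col18a1 was lower in NAC MI (3532 to 5346) than in saline MI (6738 to 8351).

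Within each treatment, where 3 libraries were set against 3, fewer members were called. After NAC no member passed in limma (0.127% of all genes called higher and 0% lower), none in edgeR and 1, Col5a3, higher in DESeq2 (1.18% of all genes). At an unadjusted p under 0.05, 7 members were higher after NAC (5.11% of all genes), Col1a1, Col1a2, Col5a2, Col5a3, Col6a1, Col8a1 and Col12a1, and none was lower (4.88%). After saline 1 member passed in limma, Col5a3, which was higher (0.854% of all genes), and none was lower (0.00667%). At an unadjusted p under 0.05, 15 members were higher after saline (6.87% of all genes) and none was lower (4.53%). The members with the smallest p were Col5a3, Col8a1 and Col12a1 after NAC, and Col5a3, Col6a5 and Col8a1 after saline.

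The log2 change of Col5a3 was 1.32 after NAC (SE 0.34, adjusted p = 0.196) and 1.70 after saline (SE 0.34, adjusted p = 0.0370 in limma). In edgeR the adjusted p after saline was 0.0547. With 1 of the 6 saline libraries left out the call was kept only without saline sham 2 (adjusted p 0.0467 to 0.195 over these fits in limma). Col8a1 gave 0.89 after NAC (adjusted p = 0.304) and 0.97 after saline (adjusted p = 0.154). Col12a1 gave 0.86 after NAC (adjusted p = 0.425) and 1.15 after saline (adjusted p = 0.166). Col1a1 gave 0.84 after NAC and 1.17 after saline, and Col3a1 0.64 and 0.92 in the same order. Col6a5 gave 2.34 after saline (SE 0.67, adjusted p = 0.153), at counts of at most 47.8 in these libraries, and 1.498 with a pseudocount of 10.

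Over the families, 8 of the 10 tested fibrillar members had a log2 change above 0 after NAC (49.8% of all genes) and 10 of 10 after saline (49.1%). Their median was 0.52 after NAC and 0.88 after saline. For basement membrane chains 2 of 8 were above 0 after NAC and 3 of 8 after saline, with medians of -0.35 and -0.09. After NAC the estimates of Col4a1, Col4a2 and Col15a1 were below 0 (-0.37, -0.31 and -0.33) but just above 0 with library quality weights, and those of Col4a2 and Col15a1 also without NAC MI 2, NAC sham 2 and saline sham 3. Libraries of the 2 surgeries did not overlap for 4 higher members after NAC, Col5a3, Col6a1, Col8a1 and Col12a1 (9.08% of all genes), and for 17 higher members after saline (10.4%). Among lower members there was 1 each, Col11a2 after NAC (9.96% of all genes) and Col4a3 after saline (8.15%). Without NAC MI 2, NAC sham 2 and saline sham 3, no member was called after NAC (3.83% of all genes in the same fit) and 3 were called higher after saline, Col5a3, Col6a5 and Col8a1 (6.74%).

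**Figure D4:**
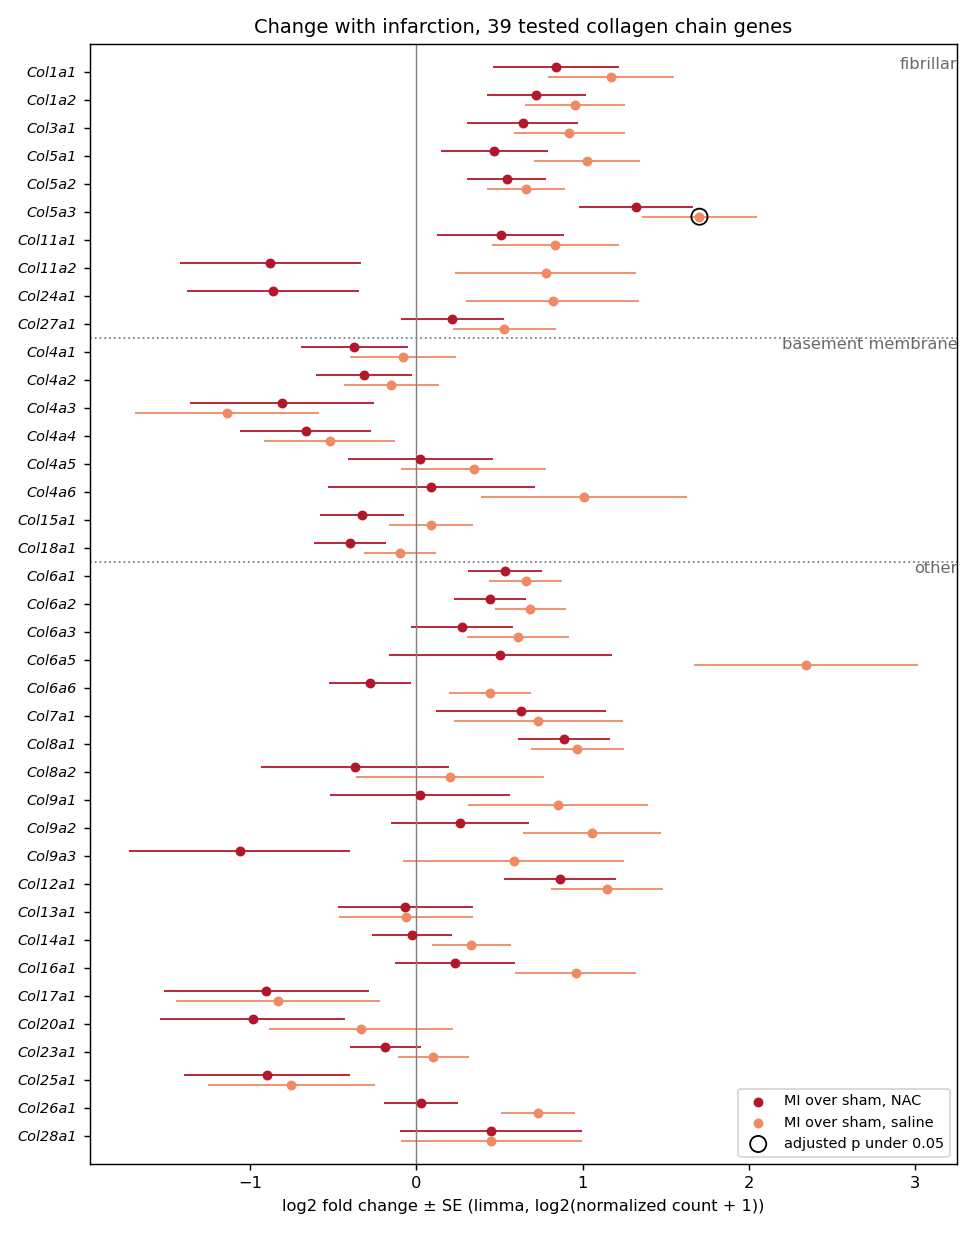
Log2 fold change of MI over sham for the 39 tested collagen chain genes after NAC (dark red) and after saline (orange), by family; bars are ± SE from limma, and circles mark an adjusted p under 0.05. The fibrillar chains of types I, III and V lie to the right of 0 under both treatments, from 0.47 to 1.70, and Col4a1, Col4a2 and Col18a1 lie at -0.40 to -0.08, although Col4a1 and Col4a2 after NAC turned to 0.0373 with library quality weights.

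Genes that make, process and bind collagen were examined beside the chains. Of 22 synthesis enzymes and chaperones, 18 had a log2 change above 0 with infarction over both treatments (49.7% of all genes), and 2 were called, both higher: P4ha1 (log2 change 0.67, adjusted p = 0.0441) and P4ha3 (log2 change 0.77, adjusted p = 0.0241 in limma), catalytic subunits of the prolyl hydroxylase that stabilises the triple helix. Of 15 procollagen processing and cross-linking genes, 13 were above 0 and 2 were called higher: Loxl4, a lysyl oxidase relative (log2 change 1.49, adjusted p = 0.00879), and Tgm2, a transglutaminase (log2 change 0.97, adjusted p = 0.00318 in limma). Of 7 tested fibril-associated proteoglycans 6 were above 0 and none was called, and the smallest p was that of Bgn. Over all genes 2.13% were called higher and 0.613% lower in this comparison.

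Collagen receptors and growth factor signalling genes were examined in the same comparison. Of 10 tested receptors 5 were above 0, and the collagen-binding integrin Itga1 was called lower (log2 change -0.88, adjusted p = 0.0442 in limma), against 0.613% of all genes. Of 10 TGF-beta ligands and receptors 6 were above 0 and none was called. In the other comparisons no gene of these 5 lists was called.

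Marker lists of other cell types were set beside the chains in the same comparison. Over all genes 49.7% were above 0, 2.13% were called higher and 0.613% lower. Fibroblast markers were above 0 for 11 of 12 genes, with 1 called higher (Thy1, log2 change 0.88) and a median log2 change of 0.56. Their summed counts were 16320 to 19940 in NAC MI, 17990 to 24750 in saline MI, 12250 to 16630 in NAC sham and 11260 to 16500 in saline sham. Of 8 markers of activated fibroblasts 6 were above 0 and 2 below, with a median log2 change of 0.16. Among them Cthrc1 (log2 change 1.20) and Tnc (log2 change 1.02) were called higher. Of 8 epicardial markers 7 were above 0 and 3 were called higher (Krt19, Upk1b and Aldh1a2). Mural markers were below 0 for 9 of 9 genes, with Rgs5, Notch3 and Vtn called lower and a median of -0.70. Endothelial markers were below 0 for 12 of 12 genes, none called, with a median of -0.57. Summed endothelial counts were 25730 to 75570 in NAC MI, 55050 to 69230 in saline MI, 49400 to 113100 in NAC sham and 88860 to 101500 in saline sham. Macrophage markers were above 0 for 12 of 12 genes (Cd14 called higher) and neutrophil markers for 9 of 9 (6 called higher). Valve markers were above 0 for 6 of 6 genes, red blood cell markers for 6 of 6 and cardiomyocyte markers for 9 of 12, with none called. Only 1 of 6 Schwann cell markers was high enough to test. By treatment, macrophage markers were above 0 for 12 of 12 genes after saline (median 3.31) and for 9 of 12 after NAC (median 0.24). Their mean log2 level in NAC MI 2 (5.81) lay below every NAC sham library (6.335 to 9.998). In NAC sham 2 (9.998) it lay above every MI library. The part of these marker differences in the values of the fibrillar and the basement membrane chains was not tested.

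NAC was compared with saline to ask whether the antioxidant changed collagen transcripts in injured or uninjured hearts. No member passed in limma after MI, after sham surgery or over both, and no gene of the whole table did (0% of all genes in either direction). In edgeR no member and no other gene passed in any of these 3 comparisons. In DESeq2 there were 1 after MI, Col26a1 (0.0757% of all genes), 0 after sham surgery (0.341%) and 4 over both, Col18a1, Col26a1, Col4a5 and Col6a5 (3.07%). At an unadjusted p under 0.05, 6 members were lower with NAC after MI (5.35% of all genes): Col5a3, Col15a1, Col18a1, Col8a2, Col9a2 and Col26a1. None was higher (3.86%). After sham surgery Col4a5 and Col6a5 were higher (3.53% of all genes) and Col18a1 was lower (2.36%). Over both surgeries, which use the same libraries, the counts were 2 higher (7.62%) and 6 lower (7.9%).

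Col26a1 and Col18a1 had the smallest p with NAC after MI. Col26a1, a short chain, had 352, 254 and 224 normalized counts in NAC MI, with 608, 520.0 and 558 in saline MI. NAC sham held 206, 286 and 322 and saline sham 329.8, 377 and 308. Saline MI stood above the other 3 groups with no overlap, and the log2 change with NAC was -1.04 after MI (SE 0.22, adjusted p = 0.529 in limma). Col18a1, whose counts are given above, lay lower in each NAC MI library than in each saline MI library. Its log2 change with NAC was -0.82 after MI (SE 0.22, adjusted p = 0.529), -0.52 after sham surgery (adjusted p = 0.770) and -0.67 over both (adjusted p = 0.172 in limma). Without NAC sham 2 it passed over both surgeries with -0.75 (adjusted p = 0.0316 in limma), and so did Col4a5 (1.67% of all genes in that fit). Without all of NAC MI 2, NAC sham 2 and saline sham 3, the counts were 0 after MI, 1 after sham surgery, Col4a5 (2.79% of all genes), and 2 over both, Col18a1 and Col4a5 (2.19%). NAC sham 2 is the only NAC sham library that shares a title prefix with saline sham libraries (saline sham 1 and 2), so without it NAC and prefix cannot be told apart after sham surgery. With prefix as a block no member was called after MI, after sham surgery or over both, and the log2 change of Col18a1 was -0.77 after MI, -0.18 after sham surgery and -0.47 over both.

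Col9a2, a fibril-associated chain best known from cartilage, had 92.0, 63.2 and 41.8 normalized counts in NAC MI, 202, 147 and 182 in saline MI, 32.7, 40.3 and 105 in NAC sham and 101, 78.4 and 75.0 in saline sham. Its log2 change with NAC was -1.48 after MI (SE 0.42, adjusted p = 0.529 in limma). Col5a3, called with infarction, gave -0.78 with NAC after MI (adjusted p = 0.529) and -0.40 after sham surgery (adjusted p = 0.796 in limma), and its NAC MI and saline MI libraries overlapped.

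Col4a5, a type IV chain encoded on the X chromosome, was among the members with the smallest p for NAC after sham surgery. It had 1401, 2944 and 864 normalized counts in NAC MI, with 992, 712 and 1148 in saline MI. NAC sham held 1964, 758 and 2285 and saline sham 771, 781 and 657. NAC sham 1 and 3 stood far above saline sham, and NAC sham 2 lay within its range. NAC sham 2 carries the title prefix of saline sham 1 and 2, and NAC sham 1 and 3 carry none. NAC MI 2, the library with the highest epicardial markers, was the highest of all. The log2 change with NAC after sham surgery was 1.03 (SE 0.44, adjusted p = 0.770 in limma). With prefix as a block, which rests on NAC sham 2 against saline sham 1 and 2, it was -0.0347 (SE 0.21). Col6a5 gave 2.30 in that comparison (SE 0.67, adjusted p = 0.770), or 1.49 with a pseudocount of 10, all 3 NAC sham libraries being above saline sham.

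**Figure D5:**
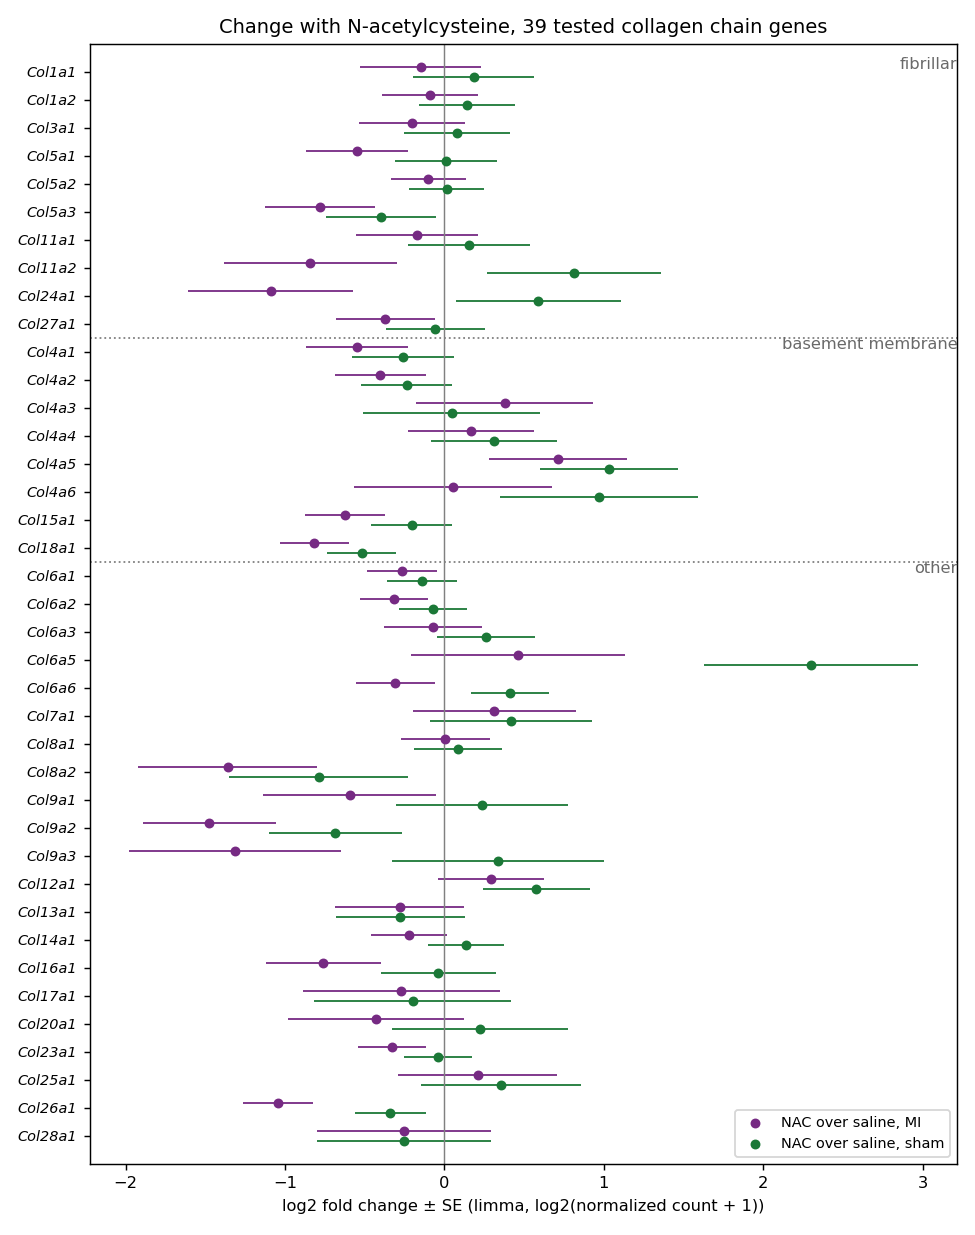
Log2 fold change of NAC over saline for the 39 tested collagen chain genes after MI (purple) and after sham surgery (green), by family; bars are ± SE from limma, and no gene had an adjusted p under 0.05. After MI the 10 fibrillar chains lie between -1.09 and -0.09, and Col26a1 lies at -1.04.

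By family, the median log2 change with NAC after MI was -0.29 over the 10 tested fibrillar members, -0.17 over the 8 of basement membranes and -0.28 over the 21 others, against -0.02 over all genes. After sham surgery the medians were 0.11, -0.08 and 0.09 in the same order, against -0.02. With title prefix as a block, the 10 fibrillar estimates after MI lay between -1.08 (Col24a1) and -0.26 (Col5a2), and none was called. That of Col1a1 was -0.44. In 11 members every NAC MI library was below every saline MI library (11.5% of all genes), Col4a1, Col4a2, Col15a1, Col18a1, Col6a1, Col6a2, Col8a2, Col9a2, Col11a2, Col16a1 and Col26a1, and in none above (8.84%). After sham surgery every NAC library was above every saline library in 2 members, Col4a6 and Col6a5 (5.35%), and below in none (4.5%). Over both surgeries the 6 NAC and 6 saline libraries overlapped for every tested member (0.447% of all genes above and 0.393% below). The log2 change with NAC was above 0 for 9 of 39 tested members after MI (48.1% of all genes), for 23 after sham surgery (48.2%) and for 13 over both (47.6%). After MI the 9 held 0 of 10 fibrillar, 4 of 8 basement membrane and 5 of 21 other chains.

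Marker lists of other cell types were set beside the NAC comparisons, with no marker called in limma in any of the 3 comparisons. Red blood cell markers were below 0 with NAC for 6 of 6 genes, with a median log2 change of -1.22 after MI, -1.40 after sham surgery and -1.32 over both. Macrophage markers were below 0 for 12 of 12 genes after MI, with a median of -1.33, and above 0 for 12 of 12 after sham surgery, with a median of 1.70. NAC MI 1 and 3 (mean log2 level 9.27 and 9.002) lay within the saline MI range (8.98 to 9.58), and NAC MI 2 was at 5.81. After sham surgery NAC sham 2 was at 9.998, with 6.64 and 6.335 in NAC sham 1 and 3 and 5.74 to 6.44 in saline sham. Neutrophil markers were below 0 for 6 of 9 genes after MI, with a median of -0.76, and above 0 for 9 of 9 after sham surgery, with a median of 0.64. After MI their mean log2 level was 6.36 in NAC MI 2, with 8.73 and 8.61 in NAC MI 1 and 3 and 8.504 to 8.69 in saline MI. After sham surgery it was 3.516 in saline sham 1. Saline sham 2 and 3 (5.719 and 5.306) lay within the NAC sham range (5.178 to 6.273). Epicardial markers were above 0 for 7 of 8 genes over both surgeries, with a median of 0.66. Their mean log2 level was 10.94 in NAC MI 2, with 9.055 and 9.19 in NAC MI 1 and 3 and 8.804 to 9.022 in saline MI. It was 9.008 in NAC sham 3, with 7.873 and 8.233 in NAC sham 1 and 2 and 8.012 to 8.392 in saline sham. Endothelial markers were below 0 for 12 of 12 genes over both, with a median of -0.44, and fibroblast markers for 9 of 12, with a median of -0.28. Valve markers had a median of 0.26 over both, the single tested Schwann cell marker had 0.87, and the medians of activated fibroblast, mural and cardiomyocyte markers lay between -0.0815 and -0.00086. The part of these marker differences in the values of the collagen chains was not tested.

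The interaction asked whether the response to infarction differed between NAC and saline pups. No member and no other gene passed in limma (0% of all genes), and no member did in edgeR or DESeq2. At an unadjusted p under 0.05, Col24a1 and Col26a1 were lower (1.44% of all genes) and no member was higher (0.593%). Col24a1, a minor fibrillar chain, had 96.7, 24.0 and 75.8 normalized counts in NAC MI, 136, 81.0 and 159.8 in saline MI, 81.9, 86.7 and 153 in NAC sham and 96.4, 85.3 and 38.1 in saline sham. Its interaction was -1.68 (SE 0.73), that of Col26a1 -0.71 (SE 0.31) and that of Col11a2, a chain of cartilage fibrils, -1.66 (SE 0.77), all on the log2 scale and with adjusted p = 0.9999 in limma. Col11a2 had 59.1, 60.6 and 48.6 counts in NAC MI, 90.9, 102 and 111 in saline MI, 81.9, 103 and 131 in NAC sham and 165, 58.5 and 20.2 in saline sham, and its saline sham libraries alone ranged from 20.2 to 165. For Col5a3 the interaction was -0.38 (SE 0.49). The estimate was above 0 for 1 of 39 tested members, Col4a3, against 50.1% of all genes. The members share the same 12 libraries, so these signs are not independent of each other.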

How the data were processed

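The deposited table held size-factor normalized gene counts (signal) made by the authors, who divided the reads of each library by a single factor. Multiplied back, 100% of values came within 0.01 of whole reads. Per the submitters' processing notes, tools included STAR (2.7.10a) and DESeq2 (1.44.0), with build mm10, and the gene counter and strand setting are not given in the sources used here. GENCODE M21 names matched 52079 of 52336 identifiers.

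Values were tested as log2(value + 1) with limma 3.58.1 (R 4.3.3), trended variance, in 1 model of 4 group means over 12 libraries (8 residual degrees of freedom), two-sided, for genes with a mean of at least 10, adjusted by Benjamini-Hochberg over 14996 genes and called under 0.05. Fold changes on this scale are understated for low genes. Scripts were tested on simulated data. Alternatives were edgeR 4.0.16 and DESeq2 1.42.0 on recovered reads, other filters, scalings and weights, and left-out libraries.

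The members and gene lists were chosen with earlier results of these data known. Values in every library are given for Col1a1, Col1a2, Col3a1, Col5a1, Col5a2, Col4a1, Col4a2, Col6a1, Col6a2, Col6a3, Col15a1 and Col18a1, for each member called, and for the 3 members with the smallest p in comparisons with fewer calls. Of the other gene lists, called genes or up to 3 with the smallest p are named; 1 list is not reported here.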

Additional observations from a re-analysis of the deposited data

How the results depend on the processing

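Over 62 results for single members and their 1055 alternatives, 959 kept direction and side of the threshold, 63 passed it newly, 21 no longer passed and 12 changed sign. For MI after saline, Col15a1 (0.0893) was -0.10 with library quality weights and -0.0677 without 3 libraries (NAC MI 2, NAC sham 2 and saline sham 3). With 1 library left out it ran from -0.0677 (without saline sham 3) to 0.206, and Col4a1 (-0.0815) ran from -0.238 to 0.0503 (without saline sham 1). For MI after NAC, Col15a1 (-0.33) was 0.0590 with weights and 0.0745 without 3 libraries, Col4a1 (-0.37) was 0.0373 with weights, and Col4a2 (-0.31) was 0.0373 with weights and 0.0381 without 3 libraries. For MI over both treatments Col15a1 (-0.12) was 0.0034 without 3 libraries. The interaction of Col5a3 (-0.38) was 0.11 with weights, and Col4a5 with NAC after sham surgery (1.03) was -0.0347 with title prefix as a block. Values in brackets are those reported. The cause was not tested.

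With weights, called members numbered 13 for MI after saline, 4 for MI after NAC, 17 for MI over both, and for NAC 2 after sham surgery, 2 after MI and 5 over both. The same counts over all genes were 2915, 806, 4187, 421, 685 and 2021. With DESeq2, called members numbered 7, 1, 11, 0, 1 and 4 in that order, and all genes 464, 241, 1218, 47, 10 and 432, with 1 for the interaction. Col12a1 over both treatments was not called with no filter on low values (adjusted p = 0.0503). With edgeR, called members numbered 0 for MI after saline and 5 for MI over both, and all genes 91 and 420. Without 3 libraries, called members numbered 3, 0, 8, 1, 0 and 2, and all genes 1807, 575 and 2183 for MI, 418 for NAC after sham surgery, 328 for NAC over both and 6 for the interaction. In fits of the compared libraries alone, MI after saline gave 2 members (Col16a1 and Col5a3) and 507 genes, and MI after NAC gave 1 gene. For MI after NAC the count over all genes was 19, and was 44 with a pseudocount of 10 and 10 with a minimum mean of 50. TMM scaling moved the median of all genes by less than 0.1.

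Leaving out 1 library gave 0 to 1 called members for MI after saline, 0 to 0 after NAC, 1 to 8 over both and 0 to 2 for NAC over both, and 0 to 0 in the other comparisons. Over all genes the ranges were 15 to 105, 8 to 67 and 133 to 1563 for MI, 0 to 80, 0 to 4 and 0 to 250 for NAC, and 0 to 4 for the interaction, against 129, 19, 411, 0, 0, 0 and 0 with all libraries. No paired analysis was possible because the labels carry no replicate numbers shared between groups. With title prefix as a block (for sham surgery and over both an alternative chosen after seeing the data), 0 members were called in the 3 NAC comparisons, and all genes numbered 0 after MI, 154 after sham surgery and 6 over both. After sham surgery only 1 prefix, on NAC sham 2 and saline sham 1 and 2, holds both treatments. Depth limits Col2a1, Col6a4, Col10a1, Col19a1 and Col22a1, which had too few reads to test.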

Other observations

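The 5 members too low to test had few reads. Col10a1, a chain of growth plate cartilage, had 110 reads over the 12 libraries and Col2a1 had 69. Col6a4 had 52 reads, Col22a1 had 47 and Col19a1 had 22. Normalized counts of Col2a1 were 10.3, 16.4 and 0 in NAC MI, 3.37, 4.46 and 11.7 in saline MI, 3.51, 0 and 9.80 in NAC sham and 7.25, 0 and 0 in saline sham. Those of Col10a1 were 0, 0 and 4.52 in NAC MI, 5.61, 17.1 and 5.85 in saline MI, 26.9, 2.63 and 11.6 in NAC sham and 19.6, 5.95 and 0 in saline sham, with wide overlap between groups.

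The membrane-bound chains Col13a1, Col17a1, Col23a1 and Col25a1 were low except for Col23a1, which averaged 475 normalized counts over the 12 libraries, against 58.6 for Col13a1, 51.5 for Col25a1 and 18.3 for Col17a1. Col23a1 lay between 345 and 622 in all 12 libraries. Col14a1, a fibril-associated chain related to Col12a1, averaged 4381 counts, and its MI libraries (3734 to 6386) overlapped its sham libraries (3236 to 5153), whereas those of Col12a1 did not.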
